A study of Mus musculus with 6 samples.

Results

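The genes described here are the core regulators of the cell division cycle: cyclins, cyclin-dependent kinases (CDKs), CDK inhibitors, E2F transcription factors, and the pocket proteins, Cdc25 phosphatases, Wee1 and Myc that act on them. They were taken by symbol from the table of gene counts, as all names of the cyclin form with 1 letter and 1 digit (Ccnd1 and the like), Cdk with a number, Cdkn1 to Cdkn3, and E2f1 to E2f8, plus Rb1, Rbl1, Rbl2, Cdc25a, Cdc25b, Cdc25c, Wee1 and Myc. Cdkn1a and Ccng1, both p53 targets, were left out. This gave 56 of 31017 genes in the table. Of these, 50 had enough counts to be tested, 5 had 0 counts in all libraries (Ccna1, Ccnb3, Cdk15, Cdkn2a and Cdkn2b), and Cdkn1c had 5 counts over all libraries and was not tested.

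A CDK is active only while bound to a cyclin. In textbook outline, growth factor signalling through ERK raises cyclin D, which with CDK4 or CDK6 phosphorylates the retinoblastoma family (pocket) proteins and so releases E2F factors from repression. E2Fs then drive cyclin E, which with CDK2 starts DNA replication, and the genes of S phase, while cyclin A and cyclin B with CDK2 and CDK1 carry the cell through S phase into mitosis. Cyclin D1 is frequently overexpressed in breast cancer, where inhibitors of CDK4 and CDK6 are used as drugs.

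The cells were 4T1, a mouse mammary carcinoma line derived from a BALB/c mouse. All of them had received Cas9 by nucleofection and were grown in collagen I gels, in medium with 10% serum. The control group (3 libraries) had control guide RNAs, and the group labelled FGFR2 KO (3 libraries, called KO below) had guides against the receptor tyrosine kinase gene Fgfr2. The labels give neither the targeted exon, nor whether the KO cells were a clone or a pool, nor which of the collagen concentrations named (1.2 or 2.4 mg/ml) a library came from, nor the time in culture, nor whether replicates were separate cultures, so the error behind each p-value is that of these libraries and could be partly technical.

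Library totals ran from 15531790 to 20447719 counts. Fgfr2 itself lay between 95.9 and 106 CPM (counts scaled to library size) in the control libraries and between 81.2 and 101 CPM in those labelled KO, and did not pass the test (edgeR adjusted p = 0.113); a count over the whole gene does not check a small deletion in it. The 5 epithelial markers Epcam, Krt8, Krt18, Krt7 and Cdh1 were present in every library, summing to 4702 to 4816 CPM in the control libraries against 3896 to 3977 CPM in the KO cells. They did not move together. Cdh1 was higher in the KO cells (log2 fold change 0.25, edgeR adjusted p = 1.48e-07). The others were lower, with log2 fold changes from -0.16 for Krt8 to -0.61 for Krt18. Of 6 leukocyte markers 3, Adgre1 and Cd3e among them, had 0 counts throughout, and the summed level, 12.6 to 15.4 CPM in the control libraries against 5.19 to 7.16 CPM in the KO cells, was almost wholly Cd68. Of 6 fibroblast markers Col3a1 had 0 counts, and the sum (36.3 to 38.2 CPM, and 39.7 to 45.4 CPM in the KO) was almost wholly Pdgfra, which was not called. At far lower levels, Col1a1 rose by 1.47 on the log2 scale (10, 9 and 5 counts, then 33, 18 and 21 in KO libraries; edgeR adjusted p = 0.00338). Dcn (2, 0 and 0 counts, then 11, 10 and 12) and Pdgfrb (0, 0 and 2, then 8, 6 and 12) were too low for the edgeR filter and higher by DESeq2 (adjusted p = 0.00641 and 0.0213). Whether these markers have a part in any result was not tested. The 4 endothelial markers summed to at most 0.588 CPM, with Kdr and Tek at 0 counts. The labels name no batch.

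Among the regulators of entry into S phase, the ERK-responsive cyclin D1 fell and the E-type cyclins rose. Ccnd1 fell to 0.683 of its control level, Ccne1 rose 2.10-fold and Ccne2 1.87-fold. E2f7, which encodes a repressor of the E2F family, rose 1.5-fold, and the pocket protein gene Rbl2 (p130) fell to 0.685 of the control. Most other members had small fold changes: 42 of the 50 tested had an absolute log2 fold change below 0.5, and 17 of the 25 that passed the test were among them.

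By edgeR's quasi-likelihood test with Benjamini-Hochberg adjustment over all tested genes, 13 of the 50 tested members rose and 12 fell at an adjusted p below 0.05 (such genes are said to be called). That is 50% of them, where 54.6% of all 12158 tested genes were called, 27.1% higher and 27.5% lower. The median log2 fold change of the members was 0.05, against -0.01 over all tested genes. The 3 KO libraries lay wholly above the 3 control libraries for 14 members and wholly below for 14, so that the groups did not overlap for 28 of 50, and for 59.5% of all tested genes. The regulators thus had no larger share of calls than the transcriptome at large. Against a minimum fold change of 1.5, only Ccne1 and Ccne2 kept their call, so that 2 members were higher and 0 lower (0 lower also at an unadjusted p below 0.05 in that edgeR test). The same test called 7.46% of all tested genes. DESeq2, without a minimum fold, called 10 members higher and 10 lower, and 41.7% of all genes it tested. With upper quartile scaling 9 members were called higher and 15 lower, where 54.1% of all tested genes were called. The even split between rises and falls of the members thus depended on the scaling.

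**Figure D1:**
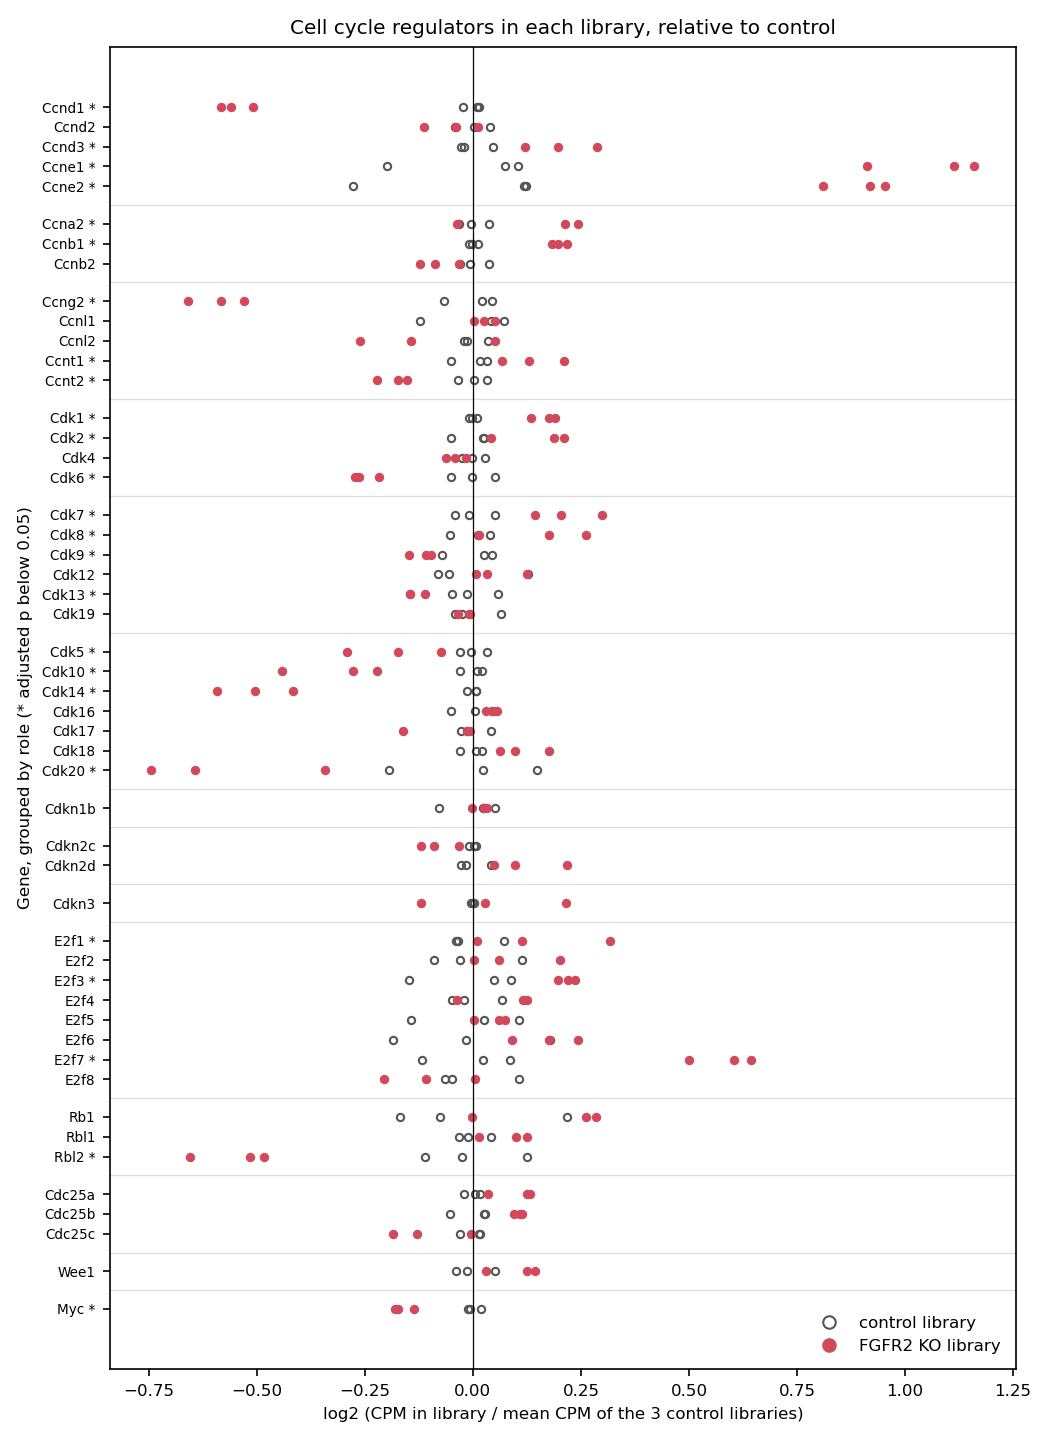
Level of each of the 50 tested members in each library, as log2 of its CPM over the mean CPM of the 3 control libraries (open grey: control, filled red: FGFR2 KO), with genes grouped by role and an asterisk on the 25 with an adjusted p below 0.05. The red points of Ccne1 and Ccne2 lie far to the right of their control points, those of Ccnd1, Ccng2, Rbl2, Cdk14 and Cdk20 to the left, and most other members stay within 0.5 of the control mean.

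Cyclin D1, the sensor of mitogen signalling and partner of CDK4 and CDK6, was the most abundant transcript of the set. Ccnd1 (chromosome 7, 144929931 to 144939925, minus strand, GENCODE M21 on mm10) stood at 1990, 1998 and 1945 CPM in control replicates 1 to 3 and at 1320, 1390 and 1342 CPM in KO replicates 1 to 3. All KO libraries were lower than all control libraries, and the gap between the groups was many times the spread within either. The log2 fold change was -0.55 (95% interval -0.61 to -0.49, SE 0.031, edgeR adjusted p = 8.71e-18). Its exons overlap the gene LTO1 (Oraov1 in the table) on the opposite strand over 23.4% of their length, and the strand setting of the counting is not given in the sources used here; Oraov1 had 14.7 to 18.9 CPM in the control libraries against 13.7 to 15.2 CPM in the KO cells.

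The other D-type cyclins, which bind the same kinases, did not follow Ccnd1. Ccnd2 was at 39.7, 40.7 and 38.5 CPM in the control libraries against 38.6, 39.9 and 36.6 CPM in the KO cells. These ranges overlap, and its log2 fold change of -0.05 (95% interval -0.18 to 0.08, edgeR adjusted p = 0.532) leaves room for only small changes. Ccnd3 rose by 0.20 on the log2 scale (edgeR adjusted p = 0.00263, SE 0.057), from 52.1, 49.5 and 49.8 CPM to 54.8, 57.9 and 61.6 CPM, with every KO library above every control library. Per kilobase of exon, Ccnd1 made up 97.7% ± 0.03 of the summed D-type cyclin level in the control and 96.4% ± 0.08 in the KO libraries (SD, n = 3 each), so it remained by far the main D-type cyclin transcript in every library. Ccnd3 went from 1.34% ± 0.036 to 2.22% ± 0.13 and Ccnd2 from 0.980% ± 0.015 to 1.37% ± 0.049 of that sum.

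The E-type cyclins, which activate CDK2 at the start of S phase, were low and rose together. Ccne1 (chromosome 7, 38097984 to 38107534, minus strand) stood at 6.92, 5.61 and 6.78 CPM in the control libraries and at 14.4, 12.1 and 13.9 CPM in the KO libraries, on 105 to 127 and 237 to 282 counts. The lowest KO value was above the highest control value by more than the range within either group. Its log2 fold change was 1.07 (95% interval 0.82 to 1.32, SE 0.13, edgeR adjusted p = 3.4e-09), the largest rise of any member and the one rise of at least 2-fold. Ccne2 (chromosome 4, 11191351 to 11204779, plus strand) went from 14.1, 10.7 and 14.1 CPM to 24.5, 22.7 and 25.1 CPM, a log2 fold change of 0.90 (95% interval 0.71 to 1.10, SE 0.098, edgeR adjusted p = 6.16e-10). In both genes control replicate 2 was the lowest library of its group. Exons of Ccne2 share 17.4% of their length with Ints8 on the opposite strand, and Ints8 was not called (log2 fold change 0.05, edgeR adjusted p = 0.503).

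With Ccnd1 lower and both E-type cyclins higher, the ratio of the summed D-type to the summed E-type level was lower in every KO library than in every control library. The summed level of the D-type cyclins, as CPM per kilobase of exon, was 433, 434 and 423 in the control and 291, 306 and 296 in the KO libraries. That of the E-type cyclins was 6.64, 5.17 and 6.57 in the control and 12.4, 11.1 and 12.4 in the KO libraries. D-type transcripts therefore outnumbered E-type transcripts by 65.2, 84.1 and 64.3 to 1 in the control and by 23.4, 27.7 and 23.9 to 1 in the KO libraries. D-type transcripts remained the more abundant by over 20 to 1 throughout. Within the E-type pair, Ccne1 held 39.6% ± 1.1 of the level in the control and 42.3% ± 1.2 in the KO libraries.

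**Figure D2:**
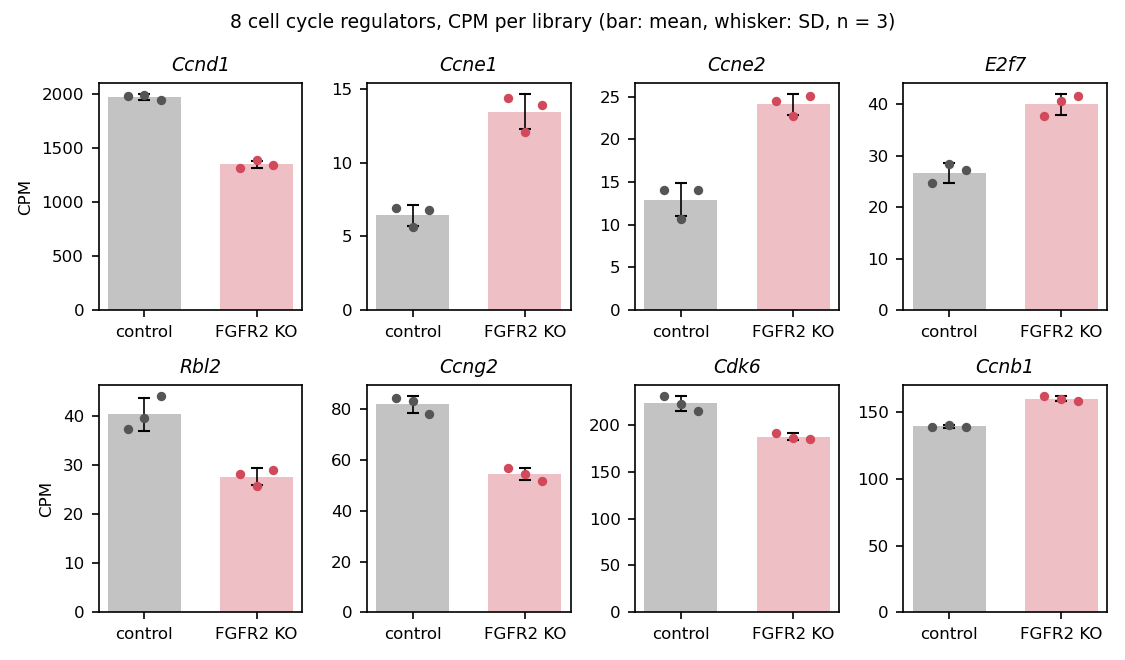
CPM in each library for 8 cell cycle regulators (points: libraries; bars: mean; whiskers: SD, n = 3 per group), each panel with its own linear axis from 0. Ccnd1, Rbl2, Ccng2 and Cdk6 are lower and Ccne1, Ccne2, E2f7 and Ccnb1 higher in the KO libraries, and in none of the 8 do the groups overlap.

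Promoter sequence is shown for members that rose, since E2F factors bind near the starts of several cell cycle genes. RefSeq promoters (GRCm38.p6, 250 bases before to 50 after the start) could be matched to 42 of the 56 members, by 48 promoters. Ccnd1, Ccnd2, Ccne2, Ccna2, Cdk5, Cdk17, Cdk19, Cdkn1c, E2f4, E2f5, Rb1, Cdc25c, Wee1 and Myc were not matched and so not searched. They were searched on both strands for the E2F-type words TTTCCCGC, TTTCGCGC, TTTGCCGC and TTTGGCGC. Of the 48 promoters, 8 (16.7%) held a word, against 2.26% of all 32851 promoters of that length. By gene, the words were found in 4 of 11 matched members that rose (E2f7, E2f3, Cdk1 and Cdk2), in 0 of 9 that fell, in 3 of 17 that were not called (Cdc25a, Rbl1 and E2f2), and in 1 of 5 that were not tested (Cdkn2a). The calls of several of these members, Cdk2 and E2f3 among them, were lost under alternatives given with their values. Whether the words have a part in any rise was not tested. The promoters of the 4 that rose are printed with the words in capitals, after that of Ccne1, the gene with the largest rise, in which these letters do not occur. All run 5′ to 3′ on the gene's strand.
Ccne1, chr7:38107441-38107740, minus strand: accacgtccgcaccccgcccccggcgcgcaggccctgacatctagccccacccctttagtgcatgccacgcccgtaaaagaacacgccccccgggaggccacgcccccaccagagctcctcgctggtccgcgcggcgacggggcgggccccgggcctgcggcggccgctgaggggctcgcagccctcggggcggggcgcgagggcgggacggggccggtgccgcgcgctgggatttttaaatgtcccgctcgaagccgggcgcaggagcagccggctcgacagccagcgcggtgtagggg
E2f7, chr10:110745189-110745488, plus strand: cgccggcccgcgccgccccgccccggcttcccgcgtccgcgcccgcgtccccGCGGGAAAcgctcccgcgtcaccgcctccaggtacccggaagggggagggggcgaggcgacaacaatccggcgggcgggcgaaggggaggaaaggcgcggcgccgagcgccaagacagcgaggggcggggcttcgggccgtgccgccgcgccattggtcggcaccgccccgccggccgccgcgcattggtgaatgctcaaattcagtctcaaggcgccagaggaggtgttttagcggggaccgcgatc
E2f3, chr13:29986014-29986313, minus strand: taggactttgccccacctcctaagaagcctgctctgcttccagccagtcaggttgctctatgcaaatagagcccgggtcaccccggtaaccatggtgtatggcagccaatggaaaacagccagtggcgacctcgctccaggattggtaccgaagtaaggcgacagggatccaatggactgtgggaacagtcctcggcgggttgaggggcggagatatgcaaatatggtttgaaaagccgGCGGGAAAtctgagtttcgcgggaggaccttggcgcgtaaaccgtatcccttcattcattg
Cdk1, chr10:69352863-69353162, minus strand: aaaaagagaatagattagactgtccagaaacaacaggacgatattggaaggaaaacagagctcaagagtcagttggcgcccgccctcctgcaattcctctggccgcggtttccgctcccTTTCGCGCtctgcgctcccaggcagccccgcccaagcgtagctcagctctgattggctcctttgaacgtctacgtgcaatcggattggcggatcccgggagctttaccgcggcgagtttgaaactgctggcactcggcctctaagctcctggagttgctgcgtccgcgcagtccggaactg
Cdk2, chr10:128705002-128705301, minus strand: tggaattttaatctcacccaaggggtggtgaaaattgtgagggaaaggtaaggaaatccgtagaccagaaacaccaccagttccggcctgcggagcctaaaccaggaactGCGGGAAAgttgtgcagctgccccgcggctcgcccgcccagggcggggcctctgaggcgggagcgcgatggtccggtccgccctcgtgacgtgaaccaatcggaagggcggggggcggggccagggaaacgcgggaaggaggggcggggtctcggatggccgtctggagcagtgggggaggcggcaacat

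Counted in bases from the RefSeq start and negative before it, the word begins at -198 in E2f7, -11 in E2f3, -131 in Cdk1 and -140 in Cdk2. E2f3 has a second RefSeq promoter (chr13:29984342-29984641), which held no word. The word TTTGAA of the cell cycle homology region (CHR), an element known from genes of mitosis that is no part of the E2F-type words, was found in 18.8% of member promoters and 17.9% of all promoters, and occurred at 2 places each in those of Cdk1 and Ccnb2. A match is a description of the sequence, not of binding. Only these exact words were searched, so a promoter without a word, as that of Ccne1, was not shown to lack E2F sites.

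Among the cyclins of S phase and mitosis, Ccna2 and Ccnb1 rose slightly and Ccnb2 was not called. Ccna2, the cyclin of S and G2 phase, was at 199, 195 and 205 CPM in the control libraries against 236, 195 and 231 CPM in the KO cells. KO replicate 2 lay among the controls while the other two KO libraries were higher, and the gene was called with a log2 fold change of 0.15 (edgeR adjusted p = 0.00966, SE 0.048). The call did not hold without control replicate 2 (edgeR adjusted p = 0.0619), KO replicate 1 (0.0828) or KO replicate 3 (0.0551). Exons of Ccna2 share 12.5% of their length with Exosc9 on the opposite strand. Exosc9 was itself called higher (log2 fold change 0.19, edgeR adjusted p = 0.00517). Whether reads of Exosc9 entered the count of Ccna2 was not tested. Ccnb1, the main mitotic cyclin, rose by 0.20 (edgeR adjusted p = 6.27e-05, SE 0.04) from 139, 140 and 138 CPM to 162, 160 and 158 CPM, with narrow spreads and no overlap. Ccnb2, a second mitotic cyclin, had 99.6, 104 and 101 CPM in the control libraries against 95.7, 93.5 and 99.6 CPM in the KO cells, was not called (log2 fold change -0.08, edgeR adjusted p = 0.131), and so did not share the rise of Ccnb1. In RNA from a whole culture, a change in the share of cells in a phase and a change in transcript per cell cannot be told apart.

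The 4 kinases of the cell cycle had log2 fold changes between -0.25 and 0.17, with 2 called higher and 1 lower. Of all tested genes 54.6% were called, and 4 genes are few to set against that share. Cdk4, the partner of cyclin D and the most abundant kinase of the set at 115 CPM per kilobase in the control, had 373, 381 and 368 CPM in the control libraries against 363, 358 and 370 CPM in the KO cells. It was not called, with a log2 fold change of -0.04 and a 95% interval of -0.11 to 0.03 (edgeR adjusted p = 0.345). Cdk6, the other cyclin D kinase, fell by 0.25 on the log2 scale (edgeR adjusted p = 9.06e-07, SE 0.039), from 231, 222 and 215 CPM to 191, 186 and 184 CPM, without overlap. Cdk1, the kinase of mitosis, rose by 0.17 (edgeR adjusted p = 5.56e-04, SE 0.04) from 145, 147 and 146 CPM to 166, 165 and 160 CPM, also without overlap. Cdk2, the partner of cyclins E and A, went from 63.7, 63.6 and 60.3 CPM to 71.2, 64.4 and 72.3 CPM. Its KO replicate 2 was barely above the controls, and the call (log2 fold change 0.15, edgeR adjusted p = 0.0202) was lost without control replicate 3 (0.0861), KO replicate 1 (0.0618) or KO replicate 3 (0.106) and with upper quartile scaling (0.0506).

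**Figure D3:**
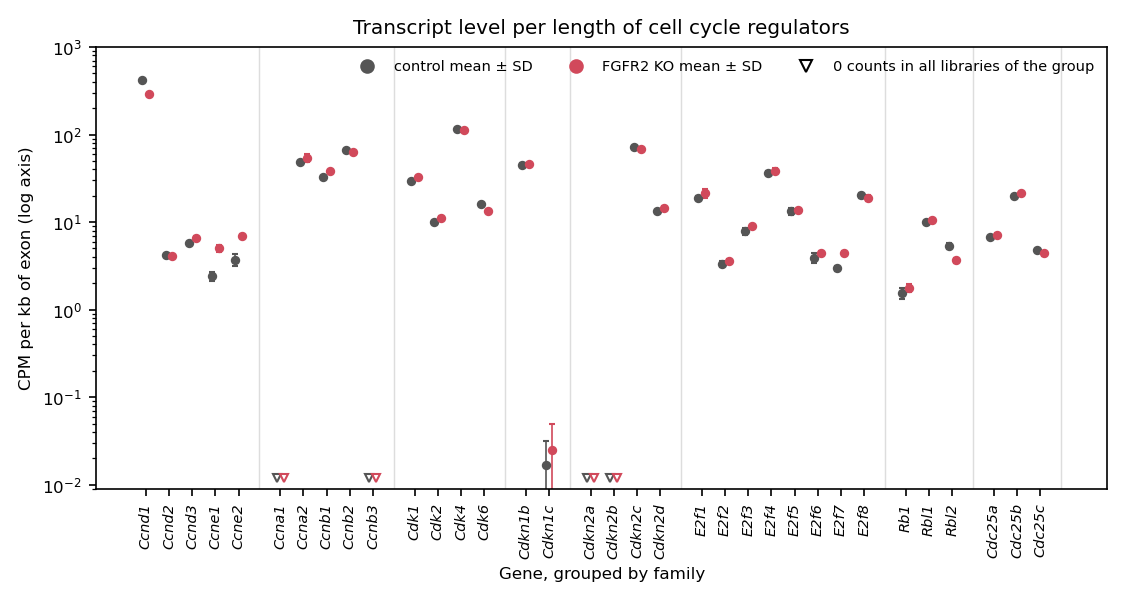
Level per kilobase of exon (CPM per kb, log axis) of cell cycle regulators by family, as the mean and SD of 3 libraries per group (grey: control, red: FGFR2 KO); open triangles at the foot mark genes with 0 counts in the group, and the lower whiskers of Cdkn1c run off the axis. Ccnd1 lies near 420 in the control and 287 in the KO, Cdk4 near 115 and 112, while the E-type cyclins, E2f7 and Rbl2, which changed most among the rest, all lie below 7.

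CDK inhibitors, which hold cyclin-CDK complexes inactive, showed no called change in the main fit. Of the 7 inhibitor genes, counting Cdkn3, 4 could be tested and 0 were called by edgeR (at an unadjusted p below 0.05, 0 higher and 1 lower, which was Cdkn2c) or by DESeq2. Of all tested genes 54.6% were called, and 4 genes are few to set against that share. Cdkn2c was called under some alternatives, given with its values. Cdkn1b (p27), an inhibitor of CDK2, stood at 213, 209 and 195 CPM in the control libraries against 205, 210 and 211 CPM in the KO cells. Its log2 fold change was 0.02, with a 95% interval of -0.06 to 0.10 (edgeR adjusted p = 0.719). Its relative Cdkn1c (p57) had 1, 1 and 0 counts in the control and 1, 0 and 2 counts in the KO libraries, too few to compare.

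Among the INK4 inhibitors, which block CDK4 and CDK6, Cdkn2a (the locus of p16 and p19ARF) and Cdkn2b (p15) had 0 counts in all 6 libraries. A count of 0 over the 6 libraries allows up to 0.0266 CPM (3 counts), a limit that covers counting error only. Cdkn2c (p18) was the abundant member, at 192, 193 and 191 CPM in the control libraries against 181, 188 and 177 CPM in the KO cells. All KO libraries were slightly lower, but it was not called (log2 fold change -0.08, edgeR adjusted p = 0.0804); it was called with upper quartile scaling (0.0241), with a filter of 5 CPM (0.0475) and without KO replicate 2 (0.0393). Cdkn2d (p19INK4D) had 20.6, 21.6 and 20.8 CPM in the control libraries against 22.5, 24.4 and 21.7 CPM in the KO cells (log2 fold change 0.12, edgeR adjusted p = 0.21). Per kilobase, Cdkn2c made up 84.3% ± 0.29 of the INK4 level in the control and 82.3% ± 0.42 in the KO libraries (SD, n = 3). Cdkn3, a phosphatase that acts on CDK1 and CDK2, had 14.3, 14.4 and 14.4 CPM in the control libraries against 14.7, 13.2 and 16.7 CPM in the KO cells, with overlapping groups (log2 fold change 0.05, edgeR adjusted p = 0.7).

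Of the 8 E2F factors, 3 rose (E2f1, E2f3 and E2f7) and 0 fell (0 lower also at an unadjusted p below 0.05, and 2 higher and 0 lower by DESeq2). Of all tested genes 27.1% were called higher and 27.5% lower, and 8 genes are few to set against these shares. The call of E2f1 was lost under several alternatives given with its values. E2f7 (chromosome 10, 110745439 to 110787384, plus strand), an atypical E2F that represses E2F targets and is itself one, stood at 24.6, 28.3 and 27.1 CPM in the control libraries against 37.7, 40.5 and 41.6 CPM in the KO cells. The groups were well apart, with a log2 fold change of 0.58 (95% interval 0.44 to 0.73, SE 0.07, edgeR adjusted p = 6.99e-09). The closely related E2f8 did not rise with it, at 106, 107 and 119 CPM in the control libraries against 111, 102 and 95.9 CPM in the KO cells. Its log2 fold change was -0.10 (95% interval -0.20 to 0.00, edgeR adjusted p = 0.099), and it was called lower with upper quartile scaling (0.0434) and without KO replicate 1 (0.012).

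The activator E2Fs (E2f1 to E2f3) had log2 fold changes of 0.10 to 0.22. E2f1, which is also the most abundant activator per kilobase, had 63.3, 58.8 and 58.6 CPM in the control libraries against 60.7, 75.1 and 65.2 CPM in the KO cells. KO replicate 2 stood above the rest and the groups overlapped. Its call (log2 fold change 0.15, edgeR adjusted p = 0.0312) rested on that library, since leaving out KO replicate 2 gave a log2 fold change of 0.06 (edgeR adjusted p = 0.38). It was also lost without control replicate 2 (0.120) or 3 (0.103), with DESeq2 (0.0835), upper quartile scaling (0.0681) and the replicate number as a block (0.0503). E2f3 rose by 0.22 (edgeR adjusted p = 0.00299, SE 0.062) from 45.1, 38.3 and 44.0 CPM to 50.01, 49.4 and 48.6 CPM; without control replicate 2, its lowest library, it was 0.15 (edgeR adjusted p = 0.0640). E2f2 was not called, with 16.0, 15.4 and 17.7 CPM in the control libraries against 17.1, 18.8 and 16.4 CPM in the KO cells (edgeR adjusted p = 0.404).

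The repressor-type E2Fs that act with pocket proteins were not called. E2f4, the most abundant E2F per kilobase (36.8 ± 1.5 CPM per kb in the control and 38.6 ± 2.4 in the KO, SD, n = 3), had 88.9, 87.1 and 94.4 CPM in the control libraries against 98.3, 87.9 and 97.6 CPM in the KO cells. The groups overlapped (log2 fold change 0.07, edgeR adjusted p = 0.221), and it was called higher without KO replicate 2 (0.0420). E2f5 had 24.1, 25.5 and 21.4 CPM in the control libraries against 24.9, 23.7 and 24.7 CPM in the KO cells (edgeR adjusted p = 0.692). E2f6, a repressor that does not need pocket proteins, had 22.1, 25.3 and 19.6 CPM in the control libraries against 23.7, 25.2 and 26.4 CPM in the KO cells (log2 fold change 0.16, edgeR adjusted p = 0.101), and was called higher without control replicate 2 (0.0195).

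Of the pocket proteins, which bind E2Fs and repress their targets, only Rbl2 was called. Rbl2 (p130, chromosome 8, 91070057 to 91123844, plus strand), the family member associated with quiescent cells, stood at 37.3, 39.6 and 44.0 CPM in the control libraries against 28.2, 25.6 and 28.8 CPM in the KO cells. Every KO library was lower than every control library (log2 fold change -0.55, 95% interval -0.69 to -0.40, SE 0.072, edgeR adjusted p = 4.28e-08). Its exons overlap genes on the opposite strand, Aktip among them, over 21.0% of their length, and Aktip was not called (log2 fold change 0.09, edgeR adjusted p = 0.219). Rbl1 (p107), the member typical of cycling cells and an E2F target, had 58.9, 59.7 and 62.0 CPM in the control libraries against 60.8, 65.7 and 64.5 CPM in the KO cells (log2 fold change 0.08, edgeR adjusted p = 0.187). Rb1 was low, at 8.88, 10.9 and 8.33 CPM in the control libraries against 11.2, 9.35 and 11.4 CPM in the KO cells, with overlapping groups (log2 fold change 0.18, 95% interval -0.08 to 0.43, edgeR adjusted p = 0.232). Per kilobase, Rbl2 went from 31.5% ± 1.5 to 22.7% ± 1.3 of the summed pocket protein level, and Rbl1 from 59.3% ± 1.0 to 66.2% ± 2.4 (SD, n = 3).

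The switches of CDK phosphorylation were not called. Cdc25 phosphatases activate CDKs and Wee1 inactivates them. Of the 3 Cdc25 genes 0 passed by edgeR or DESeq2 (1 was higher at an unadjusted p below 0.05). Of all tested genes 54.6% were called by edgeR, and 3 genes are few to set against that share. Cdc25a had 54.7, 54.3 and 53.3 CPM in the control libraries against 55.4, 59.3 and 59.0 CPM in the KO cells, and Cdc25b 71.9, 76.1 and 76.0 CPM against 79.7, 80.9 and 80.5 CPM. In both the KO libraries lay above the controls, by 0.10 and 0.11 on the log2 scale (edgeR adjusted p = 0.126 and 0.0606). Cdc25c, a phosphatase of mitotic entry, had 23.0, 23.7 and 23.7 CPM in the control libraries against 21.4, 20.6 and 23.4 CPM in the KO cells (edgeR adjusted p = 0.283). Wee1 had 41.9, 40.0 and 39.4 CPM in the control libraries against 44.1, 44.6 and 41.3 CPM in the KO cells (log2 fold change 0.10, edgeR adjusted p = 0.171).

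Myc, a transcription factor that promotes growth and cell cycle entry and is stabilized by ERK signalling, fell slightly. It had 190, 186 and 186 CPM in the control libraries against 166, 170 and 165 CPM in the KO cells. The groups were apart, and the log2 fold change was -0.16 (edgeR adjusted p = 5.11e-04, SE 0.039). Its direction was that of Ccnd1, at a smaller size.

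Cyclins and CDKs outside the core cycle held some of the larger falls. Ccng2, an atypical cyclin linked to growth arrest and to FOXO factors, went from 84.3, 82.9 and 78.1 CPM to 56.6, 54.5 and 51.8 CPM. Its log2 fold change of -0.59 (edgeR adjusted p = 4.18e-12, SE 0.053) was the largest fall of any member, and the groups were far apart. Cdk14, a kinase that pairs with cyclin Y and acts in Wnt signalling, went from 57.9, 58.8 and 58.7 CPM to 41.2, 43.8 and 38.8 CPM (log2 fold change -0.50, SE 0.058, edgeR adjusted p = 2.7e-09). Cdk20, which is linked to cilia, was low and fell from 8.78, 11.1 and 10.2 CPM to 5.99, 7.92 and 6.42 CPM (log2 fold change -0.57, SE 0.14, edgeR adjusted p = 5.72e-04). Of the 7 tested kinases of this group 4 (57.1%) fell and 0 rose (0 also at an unadjusted p below 0.05 and by DESeq2). Of all tested genes 27.5% were called lower and 27.1% higher, 54.6% in either direction, and 7 genes are few to set against these shares. Cdk10 fell by 0.31 (edgeR adjusted p = 3.29e-04), and Cdk5, a kinase best known from neurons, fell by 0.18 (edgeR adjusted p = 0.00809), a call lost without KO replicate 3 (0.0970). Cdk16, Cdk17 and Cdk18 had log2 fold changes of 0.04, -0.06 and 0.11 and were not called.

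Kinases and cyclins of transcription and splicing had log2 fold changes of at most 0.22 in size, in both directions. Of the 6 kinases, Cdk7, which activates other CDKs and serves in the general transcription factor TFIIH, rose by 0.22 (edgeR adjusted p = 0.00533, SE 0.065), with no overlap between groups. The Mediator kinase Cdk8 rose by 0.15 (edgeR adjusted p = 0.0243) while its paralog Cdk19 was at -0.02 (0.744). Cdk9, the elongation kinase, and Cdk13 fell by 0.12 and 0.13 (edgeR adjusted p = 0.0308 and 0.0277), and Cdk12 was at 0.06 (0.390). Of the cyclin T genes, partners of CDK9, Ccnt1 rose by 0.14 (edgeR adjusted p = 0.0294) and Ccnt2 fell by 0.18 (0.00234). The splicing-linked Ccnl1 and Ccnl2 were at 0.03 and -0.11 and were not called, although Ccnl2 was called lower with upper quartile scaling (0.0375) and without KO replicate 3 (0.00172).

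The calls of Cdk8, Cdk9, Cdk13 and Ccnt1 depended on single libraries. Without a library, the highest edgeR adjusted p was 0.181 for Cdk8 (without KO replicate 2), and its call was also lost without control replicate 1 (0.0556) or 3 (0.0983) or KO replicate 3 (0.0609). For Cdk9 the highest was 0.149 (without control replicate 2), and the call was lost as well without control replicate 1 (0.107), KO replicate 2 (0.0503) or KO replicate 3 (0.108). Cdk13 reached 0.145 (without control replicate 1) and was lost without control replicate 2 (0.0533), KO replicate 1 (0.0617) or KO replicate 2 (0.0640). Ccnt1 reached 0.167 (without KO replicate 3) and was lost without control replicate 2 (0.0544) or 3 (0.113). DESeq2 called none of these 4 genes (adjusted p = 0.0634, 0.0908, 0.0865 and 0.0655). Upper quartile scaling ended the calls of Cdk8 (0.0552) and Ccnt1 (0.0704), and testing without a filter on low counts those of Cdk9 (0.0626) and Cdk13 (0.0563).

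The remaining genes of the pathway were described by 5 lists written from textbook knowledge. Of 32 E2F targets of S phase, such as replication and nucleotide synthesis genes, 23 (71.9%) rose and 1 fell, where 27.1% of all tested genes were called higher and 27.5% lower. Their median log2 fold change was 0.21. Mcm5, a subunit of the replicative helicase, rose by 0.44 from 234 ± 5.1 to 317 ± 5.8 CPM (SD, n = 3). The nucleotide synthesis genes Rrm2 and Tyms rose by 0.49 and 0.57, and the replication clamp gene Pcna by 0.33 (edgeR adjusted p from 6.32e-13 for Mcm5 to 2.41e-10 for Pcna). These sizes lie between those of Ccna2 and E2f7. A rise of S phase genes was known from these data when the list was written, so it is no independent evidence.

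Of 30 tested mitotic genes, 18 (60%) rose, 1 fell (Nek2) and 11 were not called, where 27.1% of all tested genes were called higher and 27.5% lower, with a median of 0.12 and each at an absolute log2 fold change below 0.5. The lowest adjusted p were those of Incenp (0.26) and Birc5 (0.30), subunits of the chromosomal passenger complex, the motor Kif23 (0.29) and the proliferation marker Mki67 (0.24). Mki67 stood at 308 ± 5.5 CPM in the control libraries against 362 ± 31 CPM in the KO cells (SD, n = 3; edgeR adjusted p = 1.06e-05). Without control replicate 1, 11 mitotic genes were called higher, and without control replicate 3, KO replicate 1 or KO replicate 3, 0 were called lower by edgeR.

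Of 38 tested partners and regulators of the members, 14 (36.8%) rose and 10 (26.3%) fell, the latter near the 27.5% of all tested genes called lower (27.1% were called higher), with a median of 0.03. Tfdp1, which encodes the DNA-binding partner of E2Fs, rose by 0.43 from 194 ± 11 to 260 ± 6.5 CPM (SD, n = 3; edgeR adjusted p = 1.93e-11), and Mybl2, an E2F target and partner in the activation of mitotic genes, by 0.53 (6.76e-11). The Myc antagonists split, with Mxi1 down by 0.62 (edgeR adjusted p = 1.28e-11) and Mxd4 up by 0.48 (6.16e-10). Of 13 growth arrest genes 4 (30.8%) rose, near the 27.1% of all tested genes, and 5 (38.5%) fell, against 27.5% of all (median 0.02). The lowest adjusted p belonged to falls, those of Txnip (-2.90), the FOXO factor gene Foxo4 (-0.79), Gadd45a (-0.56) and Btg2 (-0.49), while Cdkn1a (p21), the main p53-induced CDK inhibitor, was at -0.01 (edgeR adjusted p = 0.904). Without control replicate 1 or KO replicate 2, 2 growth arrest genes were called higher, as with DESeq2. Of 8 ERK-responsive genes 5 (62.5%) fell and 2 (25%) rose, against 27.5% and 27.1% of all tested genes (median -0.40). Egr1 (-1.31), Spry4 (-0.79), Etv5 (-0.55), Etv4 (-0.49) and Jun (-0.31) fell, and Fos (0.27) and Fosl1 (0.30) rose. Dusp6 was not called (-0.04, edgeR adjusted p = 0.396).

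**Figure D4:**
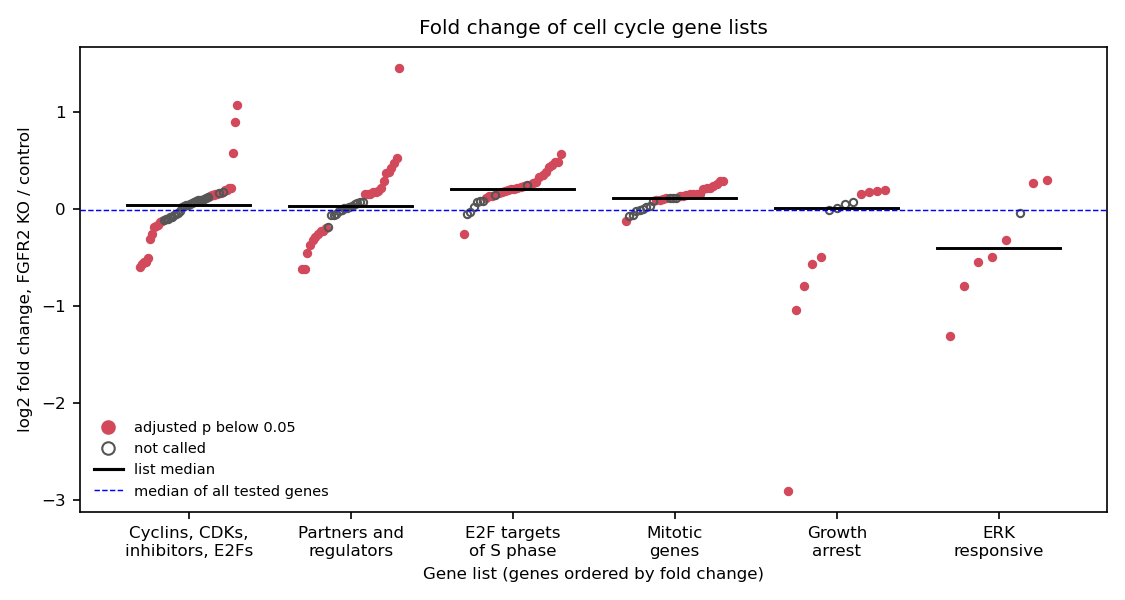
Log2 fold change (FGFR2 KO over control) of each tested gene in the regulators described here and in 5 other lists, ordered within each list (filled: adjusted p below 0.05; open: not called; black bar: list median; dashed line: median of all 12158 tested genes). The E2F targets of S phase have a median of 0.21 and the mitotic genes of 0.12, while the regulators themselves (0.05) spread to both sides.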

How the data were processed

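Poly(A) RNA of 6 libraries was measured. The authors deposited raw read counts, as whole numbers for each gene symbol. Per the submitters' processing notes the authors used FastQC 0.11.9, STAR 2.7.9a, featureCounts and R 4.1.1, with builds hg38 and mm10 named without a role; annotation, strand setting and handling of multiply aligned reads: not given in the sources used here. TruSeq Stranded mRNA was the library kit, per the labels' protocols, and gels were digested with collagenase at 300 U/ml for 10 and then 5 min at harvest. Columns were matched to libraries by name, and 0 were left unassigned.

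All genes were fitted together with edgeR 4.0.16 (R 4.3.3): filterByExpr defaults (minimum count 10, minimum total 15), TMM scaling, group as the only term, quasi-likelihood F-test, Benjamini-Hochberg adjusted p below 0.05. Fold changes are KO over control. SEs were derived from the log2 fold change and F (their quotient after taking the root of F), and intervals have a confidence level of 95%. CPM use TMM-scaled totals. Levels per kilobase divide CPM by the union of exons in GENCODE M21 (mm10), which holds 98.4% of the symbols. Alternatives were RLE and upper quartile scaling, no filter, a mean of 5 CPM, DESeq2 1.42.0, the replicate number as a block, a minimum fold change of 1.5, leaving out each library and, for shares, other lengths. The fit was tested on simulated counts. The common biological coefficient of variation fitted by edgeR was 4.00%. It is 1 value for all tested genes and leaves out counting error, so single genes can vary more between replicates. No 2 libraries held identical counts. Replicates of a group differed by more than counting noise (chi-square per degree of freedom 2.28 to 4.84).

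Members and lists were chosen with earlier results of these data known. All members are named by role, with values per library for the core genes and for others called with an absolute log2 fold change of at least 0.5, and from each list the 4 genes with the lowest adjusted p; further list genes were named after their values were seen, as were the neighbouring genes. Ccnf stands in the lists of partners and of mitotic genes. Some genes of the lists are not reported here by name.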

Additional observations from a re-analysis of the deposited data

How the results depend on the processing

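Of the 25 calls among the members, 16 held under all 12 alternatives other than the minimum fold change, 9 were lost under at least 1 of them, 5 uncalled members gained a call, and 0 changed direction while called. Leaving out 1 library at a time gave 9 to 12 members called higher and 10 to 12 lower, 11 to 13 and 7 to 11 partners, 20 to 23 and 1 E2F targets, 11 to 17 and 0 to 1 mitotic genes, 2 to 4 and 4 to 5 growth arrest genes, and 2 and 5 ERK-responsive genes. The minimum fold change of 1.5 in edgeR left 2 members higher and 0 lower, 1 partner higher and 0 lower, 0 E2F targets and 0 mitotic genes in either direction (0 also at an unadjusted p below 0.05 in that test), 0 growth arrest genes higher and 2 lower, and 0 ERK-responsive genes higher and 1 lower; by its construction it asks for larger changes. DESeq2 called 2 growth arrest genes higher. The share of all tested genes called also changed with the setting, from 54.6% in the main fit. It was 47.9% to 50.6% with 1 library left out, 7.46% with the minimum fold change and 41.7% with DESeq2. Upper quartile scaling gave 9 members higher and 15 lower and moved the median over the members to 0.024 and that over all tested genes to -0.03.

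The replicate number shared by the groups did not pair the libraries (correlations of deviations -0.03, -0.003 and -0.06, and 0 of 3 controls closest to their own number). With the replicate block, 12 members were called higher and 12 lower.

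With the longest transcript in place of the exon union, and without division by length, the share of Ccnd1 was 96.5% and 95.6% in the control and 94.5% and 93.3% in the KO libraries, that of Ccne1 42.8% and 33.3%, and 45.6% and 35.8%, and that of Rbl2 36.2% and 36.6%, and 26.7% and 27.0%. The ratio of D-type to E-type cyclins was 108 in the control and 38.7 in the KO libraries without division by length. At 105 to 282 counts per library, Ccne1 has wider counting error than the other called cyclins.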

Other observations

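The genes next to Ccne1, Ccne2, Ccnd1 and E2f7 and to the silent INK4 genes were looked at after the results above were known. Ccng2, the member with the largest fall, was not among those chosen. Uri1 and 1600014C10Rik, the nearest protein-coding neighbours of Ccne1 on chromosome 7 in the table, did not rise with it (log2 fold changes -0.15 and 0.19, edgeR adjusted p = 0.0293, lower, and 0.263), whereas Plekhf1, a neighbour farther out, rose by 0.60 (1.19e-06). Next to Ccne2 on chromosome 4, Trp53inp1, a p53-induced gene, fell by 0.89 from 35.1 ± 3.3 to 19.0 ± 0.74 CPM (SD, n = 3; edgeR adjusted p = 4.39e-12), in the opposite direction to Ccne2, and Ints8 was not called. Beyond Ints8, Dpy19l4 fell by 0.29 (edgeR adjusted p = 3.07e-05) and Esrp1 rose by 0.13 (0.0334). Beyond Trp53inp1, Ndufaf6 and Plekhf2 were not called. Tpcn2, next to Ccnd1, was at 10.8 to 12.7 CPM on average in the groups and was not called (edgeR adjusted p = 0.0673). Beside E2f7, Nav3 rose by 0.22 (edgeR adjusted p = 0.0139), and Csrp2, on the other side, was not called (0.0855).

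Cdkn2a and Cdkn2b lie side by side on chromosome 4 (89274471 to 89294653 and 89306299 to 89311039, GENCODE M21 on mm10). On one side of them Mtap (89137122 to 89181081), which encodes an enzyme of methionine salvage, was abundant, with 11963 to 15146 counts per control library and 12779 to 13750 per KO library, and on the other side Dmrta1, Zfp352 and Elavl2 had 0 counts in all 6 libraries. Beyond Mtap, Ifne had 0, 0 and 0 counts in the control and 1, 2 and 0 in the KO libraries, and Ifna1 had 0 counts throughout. Of the 31017 genes in the table, 13486 had 0 counts in all libraries. Why Cdkn2a and Cdkn2b have no counts was not tested.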
